A study of Mus musculus with 18 samples.

Results

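The 10 smooth muscle-type contractile genes of myofibroblasts, Acta2, Tagln, Myl9, Cnn1, Tpm1, Tpm2, Actg2, Myh11, Cald1 and Lmod1, were followed through cultured mouse mammary fibroblasts. They were taken by symbol from a table of 55486 genes, and all 10 were among the 14273 genes that passed the filter on low counts and were tested. The cells were normal fibroblasts (NFs) of the FVB/n mammary gland, which per the study's methods were pooled from female mice 8 to 16 weeks old that were Cdh1F/F;PtenF/F without WapCre, or mTmG reporter mice. NFs negative for the epithelial markers EpCAM and CD49f, the leukocyte marker CD45 and the endothelial marker CD31 were sorted by the surface peptidase CD26 into CD26- and CD26+ NFs, and CD26 is lost in part during culture. Cultures then spent 7 days either in conditioned medium from a control or in tumor conditioned medium (CM). The groups were CD26- NFs in control medium (n = 3), CD26- NFs in tumor CM (n = 6), CD26+ NFs in control medium (n = 3) and CD26+ NFs in tumor CM (n = 6). The CM came from 6 tumor cell lines, 13-MCB-17, 10-SJK-221, 18-MCB-12, 13-MCB-44, 13-MCB-90 and 13-MCB-138, each derived from a WEPtn tumor (WapCre;Cdh1F/F;PtenF/F), a model of invasive lobular carcinoma (ILC) in which Cre is driven by a milk protein promoter. The CM of every line went onto 1 culture per cell type, so a line is represented by 1 library in CD26- NFs and 1 in CD26+ NFs. The labels do not say that the cultures of a group came from separate animals, and p-values measure the spread between these libraries, which may be partly technical.

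Myofibroblasts are fibroblasts that have built a contractile apparatus like that of smooth muscle, and myofibroblastic cancer-associated fibroblasts are recognized by the same genes. Smooth muscle actin filaments slide against myosin, regulatory light chains switch the myosin on, and tropomyosin, calponin and caldesmon decorate the filament and set how myosin reaches it. Most of these genes are transcribed by serum response factor (Srf) with myocardin-family coactivators, through a DNA element called the CArG box, and transforming growth factor beta (TGF-beta) and mechanical tension are their best known inducers. Myoepithelial cells of the mammary gland, pericytes and vascular smooth muscle cells carry the same genes.

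Total counts ran from 9725723 to 14585349 over the 18 libraries. The 10 genes together took 0.888% to 0.917% of the counts in CD26- control libraries, 0.625% to 0.956% in CD26- CM libraries, 0.628% to 0.670% in CD26+ control libraries and 0.489% to 0.758% in CD26+ CM libraries. Fibroblast markers (Col1a1, Col1a2, Col3a1, Pdgfra, Dcn, Lum, Thy1 and Vim) were present in every group, with a summed level of 15971 to 17902 counts per 1000000 (CPM) in CD26- control, 9259 to 20802 CPM in CD26- CM, 61854 to 78727 CPM in CD26+ control and 28328 to 51321 CPM in CD26+ CM libraries. Epithelial markers were also present despite the sort: the 10 listed basal and luminal genes summed to 2570 to 4543 CPM in CD26- libraries and 631 to 1505 CPM in CD26+ libraries, and none of them was at 0 in all libraries of a group. Immune cell markers stayed at or below 3.75 CPM and endothelial markers at or below 8.77 CPM in sum. In these bulk libraries, fewer cells of a type and less RNA per cell cannot be told apart.

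The genes lie at separate places in the genome (GRCm38, GENCODE M21), and their positions in the deposited table are those of this annotation. Acta2 (chr19:34241090-34255590), Tagln (chr9:45929619-45936058), Tpm1 (chr9:67022590-67049406), Tpm2 (chr4:43514711-43523765), Actg2 (chr6:83512905-83536265) and Myh11 (chr16:14194535-14291372) are on the minus strand. Myl9 (chr2:156775420-156781658), Cnn1 (chr9:22099216-22109630), Cald1 (chr6:34598500-34775473) and Lmod1 (chr1:135324807-135368065) are on the plus strand. All are protein-coding. At the read length of 65 bases the members were distinct from their paralogs: 1 of 7659 words of 65 bases in Myh11 also occurred in transcripts of another gene on the same strand, and none did for the other 9 genes. Tagln is the exception on the opposite strand, where the antisense gene Gm48529 and the neighbor Pcsk7 cover 67.9% of its exon bases. The strand setting of the counting is not given in the sources used here, and Tagln had only 446 to 1377 counts per library. Its level is therefore uncertain, and its changes below, given as measured, carry the same uncertainty.

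Promoter sequence is shown for the genes that differed between tumor lines below, so that the letters of the CArG box can be read in them. Cnn1 and Tpm2, which passed between lines, held none in these windows, and Tpm1 and Cald1, which did not pass, held at least 1. RefSeq windows (GRCm38.p6) were at hand for 7 of the 10 genes, 8 windows in all, and not for Tagln, Actg2 and Myh11. Motifs were searched in windows of 300 bases, and the 250 bases before the RefSeq start are printed 5′ to 3′ on the gene's own strand, with CArG boxes of at most 1 mismatch in capitals. Positions count from the RefSeq start, which differs from the outermost GENCODE start given above, so that 217 of the printed bases of Acta2, 44 of Myl9, 37 of Cnn1, 211 of Tpm2 and 6 of Lmod1 lie inside the gene as GENCODE bounds it.
Acta2 (chr19:34255374-34255623, - strand): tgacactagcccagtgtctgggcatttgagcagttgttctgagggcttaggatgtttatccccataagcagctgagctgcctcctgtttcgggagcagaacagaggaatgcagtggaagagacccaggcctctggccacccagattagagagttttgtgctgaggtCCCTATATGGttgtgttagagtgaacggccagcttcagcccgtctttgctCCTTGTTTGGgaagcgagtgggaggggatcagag
Myl9 (chr2:156775214-156775463, + strand): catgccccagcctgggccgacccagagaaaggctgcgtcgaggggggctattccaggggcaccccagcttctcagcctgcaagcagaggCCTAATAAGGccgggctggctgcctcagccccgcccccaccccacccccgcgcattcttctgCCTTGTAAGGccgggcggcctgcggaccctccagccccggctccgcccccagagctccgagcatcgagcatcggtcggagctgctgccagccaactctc
Cnn1 (chr9:22099003-22099252, + strand): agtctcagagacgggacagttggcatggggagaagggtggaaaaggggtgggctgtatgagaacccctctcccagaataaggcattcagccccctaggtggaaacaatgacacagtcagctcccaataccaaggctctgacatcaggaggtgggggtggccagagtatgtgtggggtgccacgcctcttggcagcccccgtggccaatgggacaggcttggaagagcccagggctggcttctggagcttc
Tpm2 (chr4:43523555-43523804, - strand): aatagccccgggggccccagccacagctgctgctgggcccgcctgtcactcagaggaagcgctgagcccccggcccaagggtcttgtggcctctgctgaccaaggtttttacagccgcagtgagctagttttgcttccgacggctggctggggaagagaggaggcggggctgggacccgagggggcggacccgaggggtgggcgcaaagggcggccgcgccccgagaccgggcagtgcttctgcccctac
Lmod1 (chr1:135324563-135324812, + strand): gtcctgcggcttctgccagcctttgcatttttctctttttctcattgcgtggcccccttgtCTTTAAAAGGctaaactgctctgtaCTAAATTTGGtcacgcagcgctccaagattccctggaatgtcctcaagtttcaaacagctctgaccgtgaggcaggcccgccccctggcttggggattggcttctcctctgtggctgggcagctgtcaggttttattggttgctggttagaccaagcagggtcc
An exact CArG box stood in 1 of the 8 windows, that of Myl9 at -161 to -152 from the start, against 1.63% of 32851 windows of the same length. With 1 mismatch allowed, a count that includes the exact box, 5 of the 8 windows held one (Acta2, Myl9, Tpm1, Lmod1 and 1 of 2 windows of Cald1), against 21.1% of all windows. Those of Acta2 lay at -84 to -75 and at -34 to -25. The word GGAATG, bound by Tead factors and searched on both strands, occurred in 4 of the 8 windows (Acta2, Tpm1, Cald1 and Lmod1), against 14.7% of all, and overlapped no CArG box. These matches describe the letters and not binding.

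Per kilobase of exon, Acta2 was the highest of the 10 genes in every group, at 1308 CPM per kb in CD26- control NFs and 1147 CPM per kb in CD26+ control NFs. Tpm1, Tpm2, Myl9 and Cald1 followed, between 150.3 and 322 CPM per kb in control medium. Actg2, Cnn1 and Tagln lay between 34.5 and 63.5 CPM per kb. The genes most restricted to smooth muscle were the lowest: Lmod1 stood at 7.39 CPM per kb and Myh11 at 5.52 CPM per kb in CD26- control NFs, and at 4.30 and 1.13 CPM per kb in CD26+ control NFs.

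**Figure D1:**
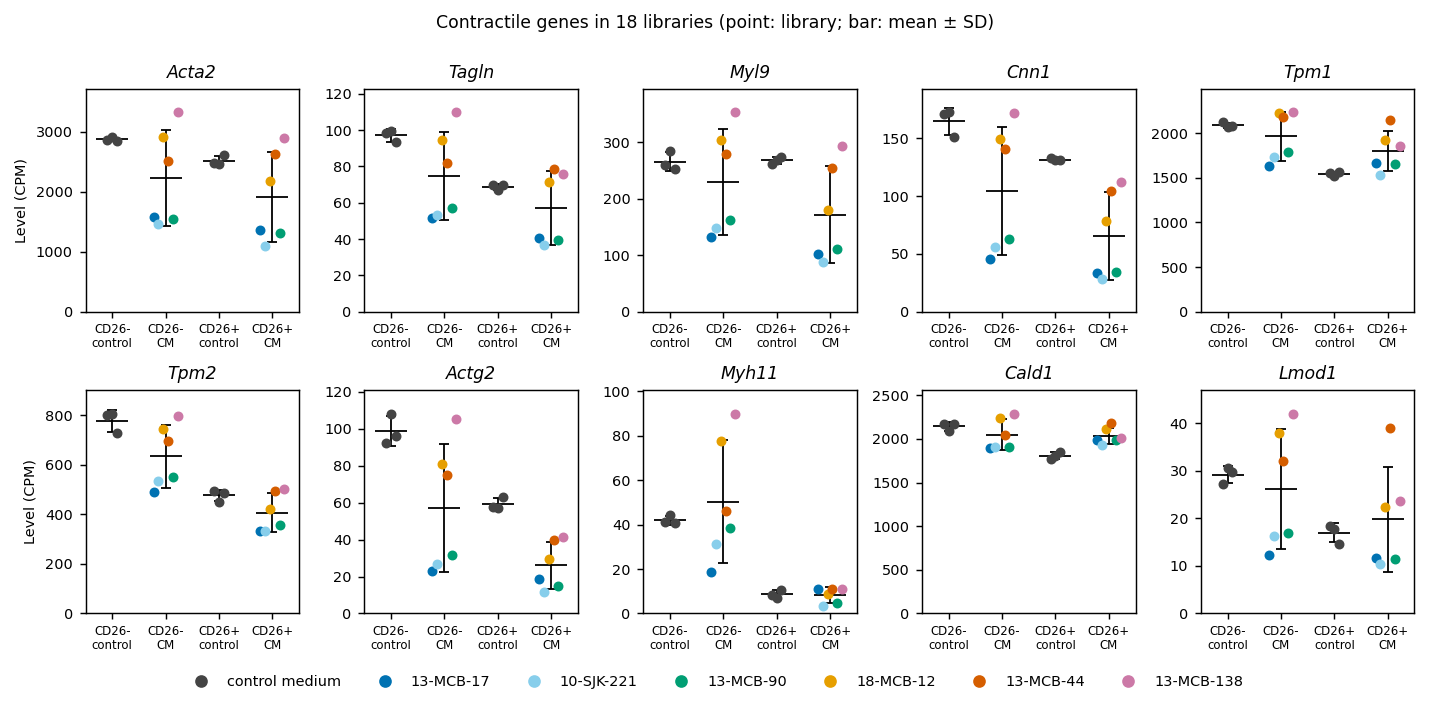
Level of each contractile gene in CPM (linear axis from 0) in the 18 libraries by group, with points colored by the tumor line that gave the CM and bars for the mean ± SD (n = 3 or 6). Control libraries lie close together, while in both CM groups Acta2, Tagln, Myl9, Cnn1, Tpm2, Actg2 and Lmod1 spread widely, with 13-MCB-17, 10-SJK-221 and 13-MCB-90 at the lower end in each.

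The next question was whether tumor CM changed the contractile genes of CD26- NFs. None of the 10 genes passed the test as higher or lower (FDR, the Benjamini-Hochberg adjusted p of edgeR's quasi-likelihood test over all tested genes, under 0.05), against 7.88% of all tested genes called higher and 7.28% called lower. The log2 fold change was negative for 9 of 10 genes, with a median of -0.25, against a median of 0.01 over all tested genes. By edgeR 0 members were at an unadjusted p under 0.05, and DESeq2 also called 0, against 17.0% of all tested genes called by DESeq2 in either direction. Control and CM libraries overlapped for all 10 genes, whereas the groups did not overlap for 20.3% of all tested genes. Acta2, smooth muscle alpha actin, stood at 2855, 2912 and 2851 CPM in the 3 controls and ran from 1456 over a median of 2049 to 3321 CPM in CM. Its CM libraries thus lay on both sides of the controls, 4 below all of them and 2 above, and the log2 fold change was -0.37 ± 0.29 (SE, FDR = 0.426, edgeR). Actg2, the gamma actin of visceral smooth muscle, had the largest mean difference of the 10. It stood at 92.5, 108 and 96.2 CPM in controls and ran from 23.0 over 53.3 to 105 CPM in CM, with 5 of 6 CM libraries below all controls and a log2 fold change of -0.79 ± 0.42 (FDR = 0.210, edgeR). Cnn1, calponin 1, an actin-bound inhibitor of myosin, likewise had 5 of 6 CM libraries below all controls (45.4 to 172 CPM in CM, 151 to 172 CPM in controls). Myh11, the smooth muscle myosin heavy chain, was the 1 gene with a positive value (0.26 ± 0.38, FDR = 0.694, edgeR), and its CM libraries ran from 18.6 to 89.7 CPM around controls of 40.5 to 44.2 CPM. The 95% interval of the log2 fold change reached from -1.67 to 0.09 for Actg2 and from -0.32 to 0.14 for Tpm1, so changes of moderate size were not detectable for the genes that varied most between CM libraries.

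In CD26+ NFs, Actg2 was the 1 gene of 10 that passed, as lower in CM, against 13.4% of all tested genes called lower and 15.2% called higher. It fell from 57.9, 57.3 and 62.8 CPM in the controls to between 11.8 and 41.3 CPM (median 24.1) in CM. All 6 CM libraries lay below all controls, and the log2 fold change was -1.19 ± 0.43 (FDR = 0.0462, edgeR). This call sat at the threshold: the FDR ran from 0.0222 to 0.116 when 1 library was left out, and the call was lost in 10 of those 18 fits (without replicate 1, 2, 3, 10, 11, 12, 13, 14, 15 or 17) and with DESeq2 (adjusted p = 0.0512). The groups did not overlap for 3 of 10 members, Actg2, Cnn1 and Cald1, against 25.3% of all tested genes. Cnn1 stood at 131 to 132 CPM in the controls and at 28.1 to 112 CPM in CM (log2 fold change -1.02 ± 0.44, FDR = 0.0906, edgeR). Cald1, caldesmon, which holds tropomyosin and actin together, had the opposite sign, with 1771 to 1854 CPM in controls and 1930 to 2181 CPM in CM (0.17 ± 0.07, FDR = 0.0675, edgeR). DESeq2 placed Cald1 past the threshold (adjusted p = 0.0340), the 1 of 10 genes it called, against 29.7% of all tested genes in either direction. Acta2 ran from 2468 to 2613 CPM in controls and from 1094 over 1769 to 2887 CPM in CM, with 4 CM libraries below and 2 above all controls (-0.40 ± 0.29, FDR = 0.335, edgeR). The median over the 10 genes was -0.25, against -0.0040 over all tested genes, and 3 genes were positive (Tpm1, Cald1 and Lmod1). Without both libraries of 13-MCB-138, a setting chosen after the data were seen, 4 of 10 genes passed, with Cnn1, Actg2 and Myl9 lower and Cald1 higher. In that fit 17.2% of all tested genes were called lower and 18.0% higher. In CD26+ NFs this line gave the highest CM level of Cnn1, Actg2 and Myl9, so its removal by itself lowers their CM mean. It did not give the highest level of Cald1. The 4 calls were not all made when another line was left out instead, and why they appeared was not tested. Without both libraries of 10-SJK-221, 13-MCB-17, 13-MCB-90 or 18-MCB-12 by edgeR 0 genes passed (2 to 4 at an unadjusted p under 0.05), and without 13-MCB-44 Actg2 alone did, against 10.4% to 14.1% of all tested genes called lower and 12.6% to 16.0% higher. Without replicate 16 or 18 Cnn1 passed beside Actg2, and without replicate 9 Cald1 did. The summed fibroblast markers moved with CM in these cells, with all 6 CM libraries below all controls, and of the 8 genes 4 were called lower and 3 higher. In CD26- NFs their sum overlapped between the media, with 1 gene lower and 4 higher. The part of this in the contractile genes was not tested.

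**Figure D2:**
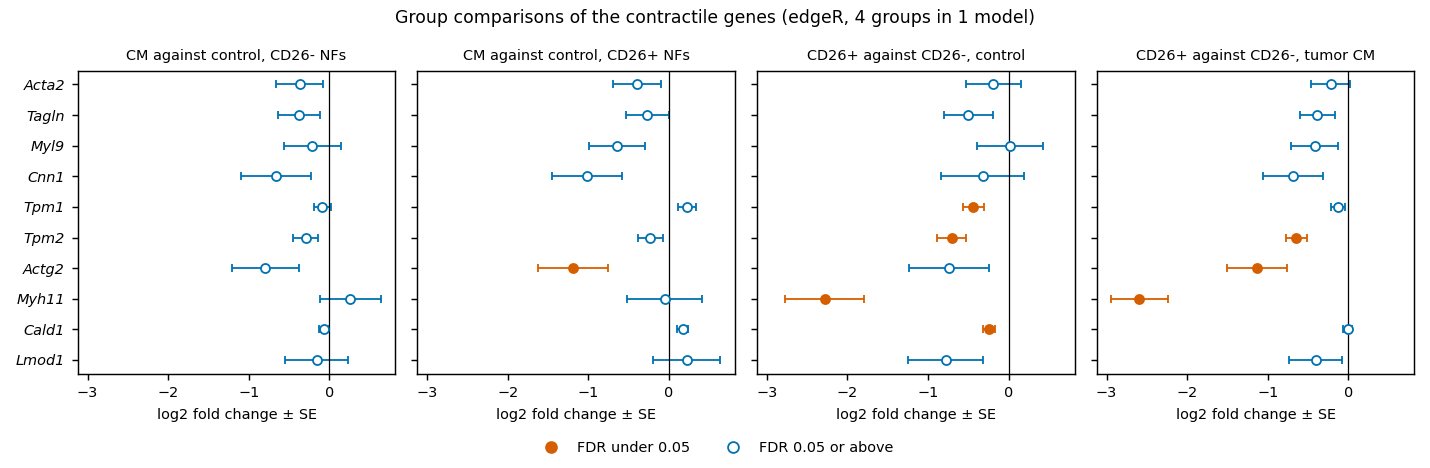
Log2 fold changes (points) with their SE (bars) of the 10 genes in the 4 group comparisons from edgeR, with filled points for an FDR under 0.05. The CM panels hold 1 filled point, Actg2 in CD26+ NFs (-1.19), and the cell type panels hold 4 and 3, with Myh11 farthest from 0 in both (-2.28 and -2.59).

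The CM libraries were then compared by the line that gave the medium, because the spread within the CM groups was large. Across the 12 CM libraries, 7 of the 10 genes differed between lines (edgeR F test of 5 line terms with the cell type fitted), against 6.56% of 13344 tested genes. These were Cnn1, Acta2, Myl9, Tagln, Actg2, Tpm2 and Lmod1. Cnn1 had the smallest p of them, with rank 6 of all tested genes by p (FDR = 0.000887) and a range of 1.83 on the log2 scale between the lowest and the highest line. The range was 1.29 for Acta2 (FDR = 0.00209), 1.48 for Myl9, which encodes the regulatory light chain of smooth muscle myosin (FDR = 0.00239), and 1.05 for Tagln, transgelin, an actin-bundling protein (FDR = 0.00272). It was 1.90 for Actg2 (FDR = 0.00470), 0.64 for Tpm2, a tropomyosin of muscle and fibroblasts (FDR = 0.00753), and 1.59 for Lmod1, leiomodin 1, which starts new actin filaments (FDR = 0.0144). Tpm1 (range 0.42, FDR = 0.0520), Myh11 (range 1.53, FDR = 0.248) and Cald1 (range 0.18, FDR = 0.479) did not pass. The median range of the 10 genes was 1.38, against 0.32 over all tested genes. Each line was represented by 2 libraries, so cultures, days or batches of medium that went with a line and the line itself cannot be told apart.

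The same 3 lines gave the lower levels in both cell types for nearly all members. In CD26- NFs, the CM of 13-MCB-17, 10-SJK-221 and 13-MCB-90 gave the 3 lowest of the 6 levels for 10, 10 and 10 of the 10 genes. In CD26+ NFs the same lines gave the 3 lowest levels for 9, 10 and 10 genes, and the exception was Myh11, where 18-MCB-12 took the place of 13-MCB-17. Mean ranks over the 10 genes, from 1 for the lowest level, were 1.2, 1.9 and 2.9 for 13-MCB-17, 10-SJK-221 and 13-MCB-90 in CD26- NFs and 2.9, 1.0 and 2.3 in CD26+ NFs. The line 13-MCB-138 was the highest for every gene in CD26- NFs, with a mean rank of 6.0, while 13-MCB-44 had the highest mean rank in CD26+ NFs, 5.5, followed by 13-MCB-138 at 5.2. The genes are not replicates of one another, and these ranks describe 12 libraries. Tests of the order itself were run for each gene over the 6 lines (exact two-sided permutation of Pearson's r and Spearman's rho, Benjamini-Hochberg over 10 relations). They passed for 0 of 10 genes by either measure, with 4 genes at an unadjusted p under 0.05 by each, and no r is given because for most of these genes the 6 values fell into 2 separate clusters of 3.

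For the 7 genes that differed between lines, the CM libraries of 13-MCB-17, 10-SJK-221 and 13-MCB-90 lay below the control mean of their own cell type in both cell types. The other 3 genes did not all share this: in CD26+ NFs, Cald1 lay above all controls with all 6 lines and Tpm1 with 5 of 6, and Myh11 with the CM of 13-MCB-17 stood at 11.0 CPM against 6.82 to 10.6 CPM in controls. For Acta2 in CD26- NFs, the CM of 13-MCB-17, 10-SJK-221 and 13-MCB-90 gave 1582, 1456 and 1553 CPM. The CM of 18-MCB-12, 13-MCB-44 and 13-MCB-138 gave 2917, 2516 and 3321 CPM, where the controls stood at 2851 to 2912 CPM. In CD26+ NFs the same order of lines gave 1362, 1094 and 1318 CPM, then 2176, 2629 and 2887 CPM, around controls of 2468 to 2613 CPM. The log2 difference from the control mean ran from -0.98 to 0.21 in CD26- NFs and from -1.20 to 0.20 in CD26+ NFs.

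Actg2 and Cnn1 had the widest ranges over lines of the 10 genes. In CD26- NFs Cnn1 stood at 45.4, 56.0 and 63.0 CPM with the CM of 13-MCB-17, 10-SJK-221 and 13-MCB-90, and at 149.5, 141 and 172 CPM with that of 18-MCB-12, 13-MCB-44 and 13-MCB-138. In CD26+ NFs the corresponding levels were 33.1, 28.1 and 34.6 CPM and then 78.8, 104 and 112 CPM, all below the controls of 131 to 132 CPM. Cnn1 with the CM of 10-SJK-221 was thus 2.22 below the control mean on the log2 scale in CD26+ NFs, while with the CM of 13-MCB-138 in CD26- NFs it was 0.06 above it. Actg2 had the same shape: 23.0, 26.6 and 31.7 CPM and then 81.1, 74.8 and 105 CPM in CD26- NFs, and 18.9, 11.8 and 14.7 CPM and then 29.4, 40.0 and 41.3 CPM in CD26+ NFs, in the same order of lines. Myl9 in CD26+ NFs stood at 102, 88.3 and 112 CPM with the first 3 of these lines and at 180.4, 254 and 293 CPM with the others, against 261 to 274 CPM in controls. Lmod1 was lower than all controls with the first 3 lines and higher than all controls with the others in both cell types. In CD26+ NFs it reached from 10.4 CPM with the CM of 10-SJK-221 to 39.0 CPM with that of 13-MCB-44, where the controls lay between 14.7 and 18.5 CPM.

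**Figure D3:**
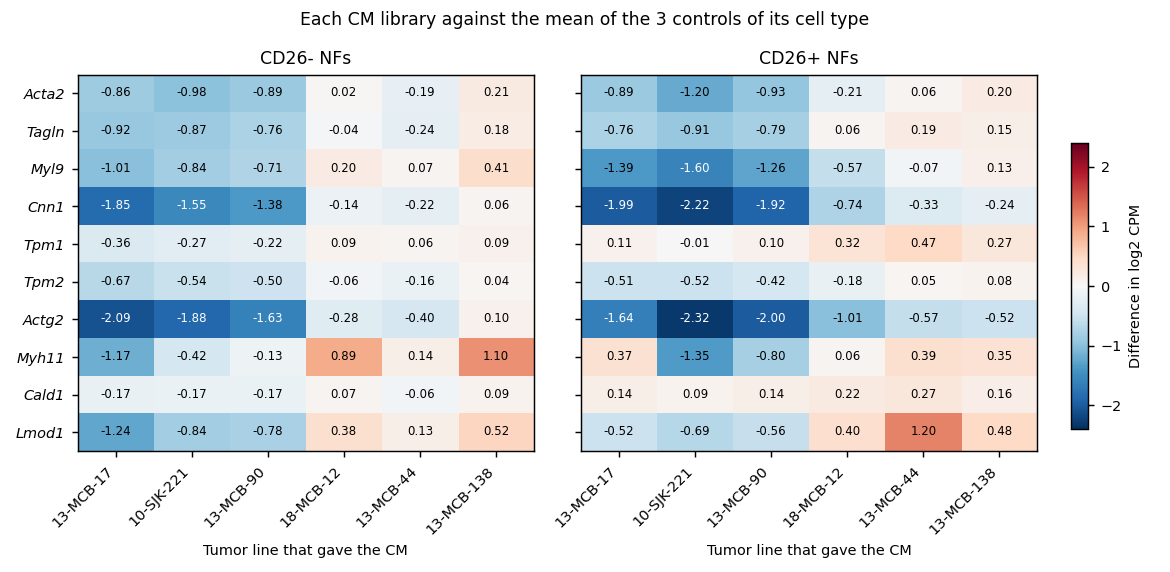
Difference in log2 CPM between each CM library and the mean of the 3 controls of its cell type, by gene (rows) and tumor line (columns), with the value in each cell and color from blue (lower) to red (higher). The columns of 13-MCB-17, 10-SJK-221 and 13-MCB-90 are blue for Acta2, Tagln, Myl9, Cnn1, Tpm2, Actg2 and Lmod1 in both panels, down to -2.32 for Actg2 in CD26+ NFs.

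Pairs of lines were tested one by one for each gene, with Benjamini-Hochberg adjustment over genes within a pair and not over the 15 pairs. Acta2, Tagln and Cnn1 each differed in 9 of 15 pairs, Actg2 and Myl9 in 8, Lmod1 in 7, Tpm2 in 6, Tpm1 in 2 and Myh11 and Cald1 in 0. Over the 10 genes this made 58 of 150 comparisons, or 38.7%, against 2.31% over all tested genes and pairs, and the number of genes called ran from 0 to 1001 between pairs. For Acta2, the 9 pairs were those that set 13-MCB-17, 10-SJK-221 or 13-MCB-90 against 18-MCB-12, 13-MCB-44 or 13-MCB-138. Its largest difference was between 10-SJK-221 and 13-MCB-138, at 1.29 ± 0.12 (SE) on the log2 scale (FDR = 0.000905, edgeR). That pair also held the largest difference of Actg2, 1.90 ± 0.23 (FDR = 0.00252, edgeR). The calls of the 7 genes held in all 12 fits that left out 1 CM library and in the 6 that left out both libraries of 1 line. Tpm1 was called as well without replicate 9 or 18, the libraries of 13-MCB-138, and without both (FDR = 0.0117, edgeR), and Myh11 without replicate 4 or 13, those of 13-MCB-17 (FDR = 0.0241 at the lowest), and without both.

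Other gene groups were set beside this result. Their counts stand against the same 6.56% of all tested genes. Of 15 tested paralogs used outside smooth muscle, among them the cytoplasmic actins and nonmuscle myosins, 1 passed, the cardiac actin gene Actc1 (range 2.31, FDR = 0.00987, edgeR), and their median range was 0.18. By edgeR 0 of 13 Srf pathway regulators passed (median range 0.15), with 3 at an unadjusted p under 0.05. Their ranges ran from 0.06 to 1.70, the widest being that of Fhl1 (FDR = 0.0672, edgeR). Fhl1, named here after its values were seen, was lowest with the CM of 10-SJK-221 and highest with that of 13-MCB-138, as Acta2 was. Of 16 other smooth muscle and stress fiber genes 4 passed, with Csrp1, a LIM protein of smooth muscle (range 0.84, FDR = 0.00272, edgeR), Mylk, the myosin light chain kinase (FDR = 0.00452), and Des, desmin (range 2.68, FDR = 0.0130), the first 3 by p. Mylk was highest with the CM of 13-MCB-138, as most members were, whereas Des and Actc1 were highest with that of 13-MCB-90. In CD26+ CM libraries Actc1 held only 0 to 3 counts and Des 2 to 4, so the ranges of these genes rest mainly on the CD26- libraries. Of 20 TGF-beta and myofibroblast matrix genes 9 passed, led by the collagen gene Col3a1 (range 1.97, FDR = 0.000971, edgeR), Postn, periostin (range 1.60, FDR = 0.00209), and the collagen receptor gene Itga11 (range 1.09, FDR = 0.00266). All 3 were lowest with the CM of 10-SJK-221 and highest with that of 13-MCB-138, as Acta2 was.

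Levels of cell type markers by line are given beside this result, and their part in it was not tested. The summed fibroblast markers ran in CD26- NFs from 9259 CPM with the CM of 10-SJK-221 to 20802 CPM with that of 13-MCB-138, and in CD26+ NFs from 28328 to 51321 CPM with the same lines. Of these 8 genes 4 differed between lines: Col3a1, Col1a2 and Col1a1 were lowest and highest with the lines just named, whereas Lum, named here after its values were seen, was lowest with the CM of 13-MCB-138. The summed epithelial markers were lowest with the CM of 18-MCB-12 and highest with that of 13-MCB-44 in both cell types (2570 and 4156 CPM in CD26- NFs, 631 and 1505 CPM in CD26+ NFs), and 1 of 9 tested genes, Krt17, differed between lines (FDR = 0.0259, edgeR). The summed pericyte and vascular smooth muscle markers lay between 613 and 799 CPM in CD26- CM libraries and between 884 and 926 CPM in CD26+ CM libraries, and 1 of 7, Des, differed. Basal epithelial markers, named here after their values were seen, did not all go with the sum. Trp63 was lowest with the CM of 10-SJK-221 and highest with that of 13-MCB-138 (range 1.76, FDR = 0.129, edgeR). Krt5 was lowest with that of 10-SJK-221 and highest with that of 13-MCB-44 (range 1.71, FDR = 0.495), and Krt14 was lowest and highest with the same lines as the sum (range 1.23, FDR = 0.0915). Of 2 skeletal muscle markers tested between lines 1 passed, Myog, myogenin, with a range of 3.64 (FDR = 0.00328, edgeR). Myog was lowest with the CM of 10-SJK-221 and highest with that of 13-MCB-90, as Des was, and in CD26- NFs the summed skeletal muscle markers stood at 5.54 and 40.3 CPM with these lines and at 7.34 CPM with 13-MCB-138.

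**Figure D4:**
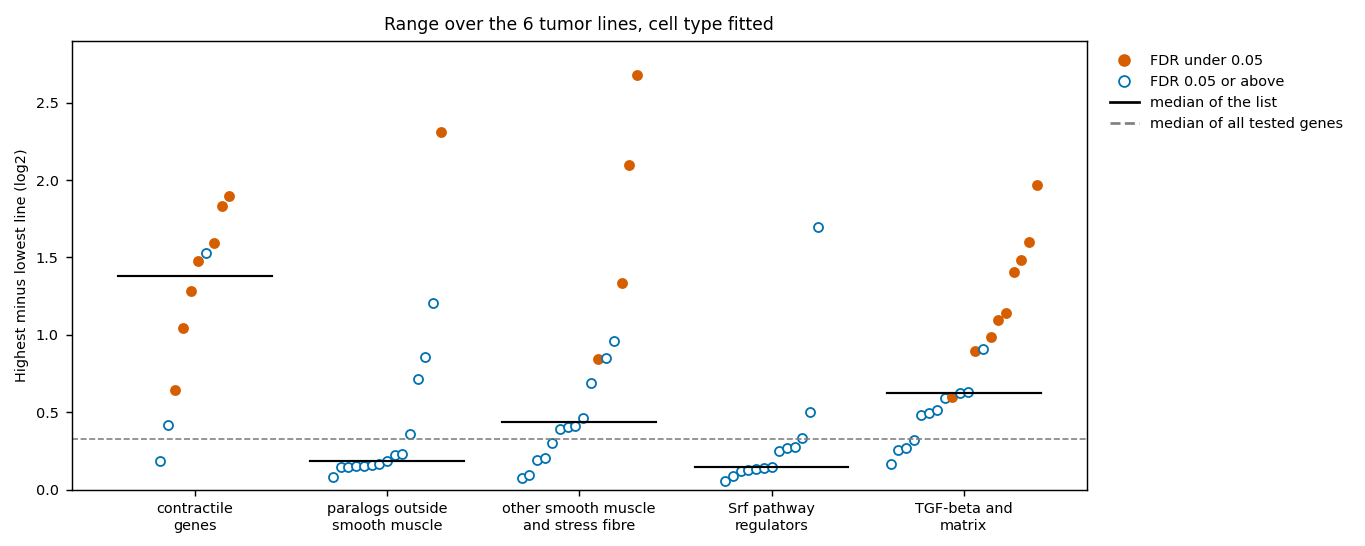
Range between the lowest and the highest of the 6 tumor lines on the log2 scale (y axis from 0) for each tested gene of 5 lists, with the cell type fitted, filled points for an FDR under 0.05, a black line for the median of a list and a dashed line for that of all tested genes (0.32). The contractile genes have a median of 1.38, against 0.18 for their paralogs and 0.15 for Srf pathway regulators.

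Between the cell types in control medium, 4 of the 10 genes were lower in CD26+ NFs and none was higher, against 25.4% of all tested genes called lower and 25.0% called higher. These were Myh11, Tpm2, Tpm1 and Cald1. Myh11 stood at 40.9, 44.2 and 40.5 CPM in CD26- and at 8.42, 6.82 and 10.6 CPM in CD26+ controls, a log2 fold change of -2.28 ± 0.49 (FDR = 0.000850, edgeR). Tpm2 stood at 800, 803 and 726 CPM in CD26- and at 492, 450 and 486 CPM in CD26+ controls (-0.71 ± 0.18, FDR = 0.00344, edgeR). Tpm1, the other tropomyosin, was at 2064 to 2120 CPM against 1518 to 1561 CPM (-0.44 ± 0.13, FDR = 0.00770, edgeR), and Cald1 at 2087 to 2174 CPM against 1771 to 1854 CPM (-0.24 ± 0.08, FDR = 0.0140, edgeR). The Cald1 call was lost without replicate 1, 10 or 11 (FDR up to 0.0525). The median over the 10 genes was -0.47, against 0.01 over all tested genes. The groups of 3 did not overlap for 9 of the 10 genes, Myl9 being the exception, but this held for 64.7% of all tested genes. Acta2, at 2851 to 2912 CPM in CD26- and 2468 to 2613 CPM in CD26+ controls, differed by -0.19 ± 0.34 (FDR = 0.676, edgeR), where the SE comes from a spread shared with the CM libraries. Fitted on the 6 control libraries alone, 9 of 10 genes passed as lower, Acta2 among them (-0.19, FDR = 0.00369, edgeR), against 30.0% of all tested genes called lower in that fit.

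In tumor CM, 3 genes were lower in CD26+ NFs (Myh11, Tpm2 and Actg2) and none was higher, against 29.3% of all tested genes called lower and 29.3% called higher. Myh11 ran from 18.6 over 42.3 to 89.7 CPM in CD26- and from 3.23 over 9.84 to 11.2 CPM in CD26+ CM libraries, a log2 fold change of -2.59 ± 0.35 (FDR = 5.8e-06, edgeR). It was the 1 gene of 10 whose groups did not overlap, against 31.7% of all tested genes. Tpm2 ran from 489 over 621 to 797 CPM and from 331 over 388 to 503 CPM (-0.64 ± 0.13, FDR = 0.000327, edgeR). Actg2 ran from 23.0 over 53.3 to 105 CPM and from 11.8 over 24.1 to 41.3 CPM (-1.14 ± 0.37, FDR = 0.0135, edgeR). Cnn1 passed as well without replicate 18 (FDR = 0.0473) and Lmod1 without replicate 16 (FDR = 0.0495). With the study's log2 limit of 2 added to the FDR, 1 gene, Myh11, passed in control medium and 1 in tumor CM, against 5.97% and 4.16% of all tested genes, and 0 passed for CM in CD26+ NFs, against 2.01%.

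Both libraries of a line could be set side by side. Tagln, Myl9, Cnn1, Tpm2, Actg2 and Myh11 were lower in CD26+ than in CD26- NFs with all 6 lines, Acta2, Tpm1 and Lmod1 with 5, and Cald1 with 2. The median log2 difference over the lines was -0.23 for Acta2, -0.74 for Cnn1, -1.13 for Actg2 and -2.99 for Myh11, and that of Myh11 was smallest with the CM of 13-MCB-17 (-0.75). With the line as a replicate block, 9 of 10 genes passed as lower in CD26+ NFs, all but Cald1, against 31.4% of all tested genes called lower in that fit. Fitted on the 12 CM libraries alone with the block, 9 passed again, against 30.5%. In the former of these fits Acta2 had a log2 difference of -0.24 (FDR = 0.00133, edgeR) and Cnn1 of -0.71 (FDR = 4.92e-07).

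Epithelial markers moved with the cell type: their summed level was 4162 to 4543 CPM in CD26- and 702 to 1229 CPM in CD26+ controls, and 2570 to 4156 CPM and 631 to 1505 CPM in CM. In each of the media 7 of 9 tested epithelial markers passed as lower in CD26+ NFs. The luminal keratin genes Krt8 and Krt18 made up most of the sum in CD26- controls, at 1227 ± 104 and 1534 ± 94.5 CPM (SD, n = 3). The markers of basal cells, the layer that myoepithelial cells form, differed among themselves, and they were not tested against the luminal markers. Krt14 and Krt17 passed as lower in both media, but Krt14 overlapped in CM (117 to 253 CPM in CD26- and 48.7 to 184 CPM in CD26+ NFs). Krt5 overlapped in both media, at 34.1 to 96.4 and 23.7 to 43.1 CPM in controls (log2 fold change -0.96, FDR = 0.192, edgeR). Trp63 had the opposite sign in control medium, at 2.99 to 5.55 CPM in CD26- and 5.10 to 7.35 CPM in CD26+ NFs (0.44, FDR = 0.463, edgeR). The mean log2 level over the 10 markers lay between 6.01 and 7.14 in CD26- and between 4.37 and 5.80 in CD26+ libraries. This mean and the sum did not overlap between the cell types, so cell type and the joint level of these markers cannot be told apart. In CD26- NFs the mean over the 10 markers was also lower with CM, at 6.79 to 7.14 in controls and 6.01 to 6.66 in CM. These ranges did not overlap, so in CD26- NFs medium and the joint marker level cannot be told apart either. With this mean as a covariate in edgeR, 0 of the 10 genes passed in either medium (0 in control medium and 1 in tumor CM at an unadjusted p under 0.05), against 13.4% and 23.9% of all tested genes called in either direction, and 0 passed in either CM effect (0 in CD26- and 3 in CD26+ NFs at an unadjusted p under 0.05), against 2.12% and 27.5%. The log2 fold change of Actg2 with CM in CD26+ NFs was then -1.06 (FDR = 0.0748, edgeR). Between the cell types in control medium, the log2 difference was -1.09 for Myh11 (FDR = 0.452), -0.28 for Tpm2 (FDR = 0.612), -0.066 for Tpm1 (FDR = 0.875) and -0.12 for Cald1 (FDR = 0.613) by edgeR. In tumor CM it was -1.73 for Myh11 (FDR = 0.0590), -0.32 for Tpm2 (FDR = 0.341) and -0.23 for Actg2 (FDR = 0.839) by edgeR. Fibroblast markers moved the other way, with 7 of 8 higher in CD26+ NFs in control medium and 6 of 8 in tumor CM. Skeletal muscle markers were near 0 in both control groups (at most 2.32 CPM in sum over 8 genes) and in CD26+ CM libraries (at most 1.14 CPM), but summed to 5.54 to 40.3 CPM in CD26- CM libraries, where 5 of 5 tested genes rose with CM. Of the 8, 1 was at 0 in all CD26- control libraries, 4 in all CD26+ control libraries and 3 in all CD26+ CM libraries. Their part in the contractile genes was not tested.

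Pericyte and vascular smooth muscle markers moved in both directions, and their part in the contractile genes was not tested either. In sum the 9 genes stood at 683 to 749 CPM in CD26- and 745 to 854 CPM in CD26+ controls, and at 613 to 799 CPM and 884 to 926 CPM in CM, with 1 of them at 0 in all CD26+ libraries. In control medium 3 of 7 tested genes were lower in CD26+ NFs, against 25.4% of all tested genes called lower and 25.0% called higher. Mcam, an adhesion molecule, stood at 93.6 ± 12.3 CPM in CD26- and 24.5 ± 7.07 CPM in CD26+ controls (log2 fold change -1.93, FDR = 9.85e-05, edgeR), Cspg4, the NG2 proteoglycan, at -1.35 (FDR = 0.000124) and Rgs5, a G protein regulator, at -1.62 (FDR = 0.000705). The other 2 calls were higher, Pdgfrb, a growth factor receptor of pericytes and fibroblasts (0.43, FDR = 0.000786, edgeR), and Abcc9, a potassium channel subunit (1.85, FDR = 0.000280). In tumor CM Mcam (-1.11, FDR = 0.000742, edgeR) and Des were lower, and Notch3 (1.08, FDR = 6.05e-06) and Pdgfrb were higher. Of all tested genes 29.3% were called lower and 29.3% higher there, and nothing is read from these counts. With CM itself, Rgs5 (-2.19, FDR = 0.000273, edgeR) and Mcam (-1.49, FDR = 0.00163) fell and Des rose in CD26- NFs. In CD26+ NFs Abcc9 fell (-1.65, FDR = 0.000366, edgeR) and Notch3 rose (0.52, FDR = 0.0344). Of these, genes beyond the first 3 by p in a comparison were named after their values were seen.

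Paralogs and other genes of the contractile apparatus were counted between the cell types in the same way. The shares of all tested genes called lower and higher were again 25.4% and 25.0% in control medium and 29.3% and 29.3% in tumor CM, and no test of a list was run. In control medium 9 of 15 paralogs were lower in CD26+ NFs and 0 higher, with Myl12a, a nonmuscle regulatory light chain (log2 fold change -0.55, FDR = 1.48e-06, edgeR), Myh14, a nonmuscle myosin (-2.36, FDR = 4.47e-06), and the tropomyosin gene Tpm3 (-0.37, FDR = 1.33e-05) first by p. Of 18 other smooth muscle and stress fiber genes 10 were lower and 0 higher, led by the actin crosslinker Actn1 (-0.73, FDR = 3.56e-07, edgeR), the integrin gene Itga8 (-2.18, FDR = 2.79e-05) and the focal adhesion gene Zyx (-0.29, FDR = 0.000784). In tumor CM the counts were 12 of 15 paralogs lower and 1 higher, and 12 of 18 other smooth muscle and stress fiber genes lower and 1 higher. Among 14 Srf pathway regulators, 6 were lower and 1 higher in control medium and 6 lower and 3 higher in tumor CM, and nothing is read from these against the shares above. Klf4, a repressor of smooth muscle genes (-1.12, FDR = 1.87e-05, edgeR), was lower in CD26+ controls, and Tead3 was higher (0.55, FDR = 4.64e-05). Myocd, the myocardin gene, named here after its values were seen, was low throughout, at 0.907 ± 0.0830 CPM (SD, n = 3) in CD26- and 0.225 ± 0.124 CPM in CD26+ controls (log2 fold change -1.93, FDR = 0.0131, edgeR). TGF-beta and matrix genes went in both directions in control medium, with 8 of 20 higher and 6 lower in CD26+ NFs, with Tgfbi at 3.77 (FDR = 7.73e-08, edgeR) and Ankrd1 at -2.23 (FDR = 5.48e-07).

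Calls for CM itself were counted in the same lists, against 7.28% of all tested genes lower and 7.88% higher in CD26- NFs and 13.4% lower and 15.2% higher in CD26+ NFs. With 14 to 20 genes a list, nothing is read from counts of 1 to 3. Of the TGF-beta and matrix genes in CD26- NFs, 6 of 20 were lower with CM and 0 higher, led by Cthrc1, a secreted protein of activated fibroblasts (log2 fold change -1.29, FDR = 0.00168, edgeR), the Smad corepressor gene Skil (-0.35, FDR = 0.00925) and Tgfb1 (-0.51, FDR = 0.0173). In CD26+ NFs 9 of 20 were lower and 4 higher, with Tnc, tenascin C, at 1.14 (FDR = 5.18e-05, edgeR), Cthrc1 at -1.63 (FDR = 5.59e-05) and Cyr61 at 0.98 (FDR = 7.47e-05) first by p. Of 14 Srf pathway regulators, 2 were lower in CD26- NFs, and 3 were lower and 2 higher in CD26+ NFs, where Fhl2, a LIM protein that binds Srf, had a log2 fold change of -0.54 (FDR = 7.28e-05, edgeR). Of 15 paralogs, 1 rose and 1 fell in CD26- NFs, Actc1 at 4.22 (FDR = 0.000602, edgeR) and Myl12a at -0.17 (FDR = 0.0347). Of 18 other smooth muscle and stress fiber genes, 1 rose and 3 fell in CD26- NFs, Des at 3.28 (FDR = 0.000885, edgeR), Synm at -0.90 (FDR = 0.00785) and Smtn at -0.40 (FDR = 0.0329) among them. In CD26+ NFs 1 of 15 paralogs rose and 0 fell, Tagln2 at 0.26 (FDR = 0.00133, edgeR). There 1 of 18 other smooth muscle and stress fiber genes rose and 1 fell, Actn1 at 0.20 (FDR = 0.0199, edgeR) and Smtn at -0.40 (FDR = 0.0199).

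Whether CM acted differently on the contractile genes of the 2 cell types was tested with the difference between the CM effects. 0 of 10 genes passed, against 4.53% of all tested genes called higher in that difference (CD26+ minus CD26-) and 3.01% called lower. By DESeq2 0 passed as well, against 10.8% of all tested genes in either direction, and 1 gene, Cald1, was at an unadjusted p under 0.05 (0.24 ± 0.09 on the log2 scale, FDR = 0.128, edgeR). The 95% interval of the difference ran from -0.91 to 0.86 for Acta2 and from -1.69 to 0.90 for Actg2, which leaves room for sizable differences in either direction. With the tumor line as a replicate block, 4 of 10 genes passed. The differences were -0.48 for Myl9 (FDR = 0.0161, edgeR) and -0.39 for Cnn1 (FDR = 0.0325), against 8.21% of all tested genes called lower in that fit. They were 0.31 for Tpm1 (FDR = 0.00946) and 0.24 for Cald1 (FDR = 0.0313), against 9.42% called higher. Without both libraries of 13-MCB-138 and without the block, Cald1 alone passed (FDR = 0.0451), against 8.77% of all tested genes called higher in that fit, and without both libraries of any of the other 5 lines 0 passed by edgeR (0 to 2 at an unadjusted p under 0.05).

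The members also varied together within groups. Deviations of log2 CPM from the group mean over the 18 libraries correlated with those of Acta2 at a Pearson r of 0.984 for Myl9 and Tagln, 0.980 for Cnn1, 0.969 for Actg2, 0.959 for Tpm2 and 0.930 for Lmod1. The values were lower for Tpm1 (0.912), Cald1 (0.818) and Myh11 (0.807). These points share the tumor lines and are a description. The comparison covered 10602 other genes whose mean level reached 5 CPM. Those most like Acta2 by the same measure were Msrb3 (0.978), Saraf (0.965), Trpv2 (0.965), P4ha3 (0.963) and Sulf1 (0.962). Of these, Sulf1, an extracellular heparan sulfatase, was lower with CM in both cell types, by a log2 fold change of -1.05 (FDR = 0.0372, edgeR) in CD26- and -1.31 (FDR = 0.00589) in CD26+ NFs. Saraf was lower as well, by -0.28 (FDR = 0.0496, edgeR) and -0.27 (FDR = 0.0411), and Msrb3 in CD26+ NFs by -0.47 (FDR = 0.0371), with -0.40 (FDR = 0.105) in CD26- NFs. P4ha3, a collagen prolyl hydroxylase, was higher in CD26+ NFs in control medium, by 1.30 (FDR = 0.000615), where Acta2 was not.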

How the data were processed

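Polyadenylated RNA of 18 cultures was sequenced from stranded libraries with single-end reads of 65 cycles. The submitters' processing notes name HISAT2 2.1.0, HTSeq and GRCm38, and the strand setting of counting is not given in the sources used here. Deposited were raw counts for each Ensembl gene, which the authors had not normalized, and 1 row without a gene, which held 0 counts, was left out. Genes were kept with filterByExpr by group. After TMM scaling they were tested with edgeR 4.0.16 in R 4.3.3 (quasi-likelihood F test, 1 model of 4 groups, FDR under 0.05 by Benjamini-Hochberg over all tested genes). The common coefficient of biological variation came to 0.117. The line test used the 12 CM libraries with terms for cell type and line (5 residual degrees of freedom). CPM values are relative to the TMM-scaled library size, and log2 CPM has a prior count of 2.

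No copied library was found, since counts of replicates differed by a chi-square of at least 3.22 for each degree of freedom. Whether lines pair the libraries was checked on residuals from the group means over 14273 genes: same-line pairs correlated at 0.247 to 0.406 in all 6 cases and other pairs at -0.315 to 0.242. The line therefore served as a replicate block in an alternative. Further alternatives were DESeq2 1.42.0, other scalings and filters, an epithelial marker covariate, the compared groups alone, the study's log2 limit of 2 and leaving out libraries. The fit of the 12 CM libraries alone with the block, the leaving out of both libraries of a line (planned for 13-MCB-138 in the line test) and of each CM library in the line test were chosen after the data were seen. Motifs were searched in RefSeq promoter windows (GRCm38.p6), and 65-base words were compared over GENCODE M21 transcripts. All members were named, with the 3 genes smallest in p among those that passed in another list and the 5 genes most like Acta2. The members and lists were chosen with earlier results of these data known. The tests were tried on simulated counts with known changes.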

Additional observations from a re-analysis of the deposited data

How the results depend on the processing

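The number of genes changed by CM in CD26- NFs was 0 under every alternative run. The number differing between lines was recomputed with upper-quartile scaling, without both libraries of each line in turn and without each of the 12 CM libraries in turn, and was 7 or 8. With the study's log2 limit of 2 on top of the FDR, 0 genes passed for CM in CD26+ NFs, 1 for the cell types in control medium and 1 in tumor CM. With the epithelial marker covariate these counts were 0, 0 and 0. The line paired the libraries: with it as a replicate block, 9 genes differed between cell types in tumor CM and 4 in the CM effect, and 9 again when the 12 CM libraries were fitted alone. On the control libraries alone 9 differed between cell types, in a fit whose spread comes from 6 libraries. Without both libraries of 13-MCB-138, chosen after the data were seen, 4 genes passed for CM in CD26+ NFs and 1 for the difference in CM effect. Without both libraries of another line these were 0 to 1 and 0. Leaving out 1 library gave 0 to 2 genes for CM in CD26+ NFs, 3 to 4 for the cell types in either medium and 0 for the difference. None of the log2 values that changed sign passed the test, and the cause was not tested. With the epithelial marker covariate these were, for CM in CD26- NFs, Myl9 (0.1528), Tpm1 (0.05942) and Lmod1 (0.3475), and for CM in CD26+ NFs Myh11 (0.08458). For the cell types in control medium they were Acta2 (0.5724), Tagln (0.1446), Cnn1 (0.8189), Actg2 (0.4876) and Lmod1 (0.5267), and in tumor CM Acta2 (0.3395), Tagln (0.08952), Myl9 (0.2817), Cnn1 (0.1547), Tpm1 (0.1463), Cald1 (0.08018) and Lmod1 (0.5245). For the difference in CM effect they were Tagln (-0.05509), Tpm2 (-0.04636) and Lmod1 (-0.002197). Cald1 in tumor CM was at 0.008793 with no filter on low counts and at 0.02707 without 13-MCB-138. Leaving out 1 library or both of 1 line other than 13-MCB-138, the CM effect in CD26+ NFs ran from -0.2114 to 0.1207 for Myh11 and from -0.1099 to 0.3526 for Lmod1, and the cell type difference from -0.01576 to 0.07104 for Myl9 in control medium and from -0.03637 to 0.02429 for Cald1 in tumor CM. The difference in CM effect ran from -0.1914 to 0.1204 for Acta2, from -0.01433 to 0.2525 for Tagln and from -0.01659 to 0.1372 for Tpm2. Myh11 in CD26+ NFs had the lowest counts of the 10 genes, at 43 to 145 in a library, and the part of depth in its spread was not tested.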
